A study of Mus musculus with 30 samples.

Results

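The cerebellum is the hindbrain structure that tunes movement, and its RNA was read on 2 of the 30 arrays of a survey of 15 adult mouse tissues. The 2 cerebellum arrays were taken by their labels and were compared with 24 arrays of the 12 non-neural tissues lung, liver, heart, kidney, bladder, muscle, skin, small_intestine, stomach, large_intestine, fat and bone. The 2 arrays each of brain_cortex and eyes, the other neural tissues, served as further comparators. All animals were male C57BL/6 mice, 28 weeks old per the labels (the study's methods give a slightly older age), with no treatment, transgene or deletion in any group. Each array carried tissue RNA in Cy3 and, in Cy5, a common reference of pooled mouse cell line RNA mixed with embryonic stem cell RNA. A level is given below as log2(Cy3/Cy5), so that 0 means as much signal as in the reference, and a difference is a subtraction of such levels. Replicates came from different animals according to the series description, except for bone and fat, for which it names a single replication.

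The cerebellar cortex is built around Purkinje cells, large inhibitory neurons that send its only output to the deep nuclei. They receive input from very numerous small granule cells and from local interneurons, and are wrapped by Bergmann glia, a kind of astrocyte. Neurons depend on ion channels, on vesicle release and on motors that carry cargo along axons, and oligodendrocytes coat the axons with myelin. A whole piece of tissue was measured, so fewer cells of a type and less RNA per cell cannot be told apart in any value below.

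Both cerebellum arrays lay on 1 slide together with brain_cortex replicate 1, and 14 arrays shared their scan day, among them 5 of the 12 non-neural tissues. The 2 arrays agreed closely (Pearson r = 0.989 across 21019 probes), and the values of 96.6% of probes lay within 0.5 of each other on the log2 scale. Replicates were less alike for fat (r = 0.671), large_intestine (r = 0.798) and bone (r = 0.848), which enter the comparator as 3 of its 12 tissue means. Of the probes tested, between 86.3% and 90.2% were well above background in Cy3 on the cerebellum arrays, against 68.7% to 88.0% on the non-neural arrays. Only 5047 of the 21019 probes (24%) carry a gene symbol here, so that most classical cerebellar markers, Pcp2, Calb1 and Gabra6 among them, were not analysed.

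Against the 12 non-neural tissues, 3179 of 21019 probes (15.1%) were higher in cerebellum and 3524 (16.8%) were lower, at an adjusted p under 0.05 and a log2 difference of at least 1 (limma). Among the probes with a symbol 624 (12.4%) were higher and 611 (12.1%) lower. The median difference over all probes was -0.11, and 1480 probes were higher and 1128 lower by at least 2. The 2 cerebellum arrays lay above all 24 non-neural arrays for 2518 probes (12%) and below all of them for 2586 (12.3%). Median centring in place of loess turned the split of calls from 47.4% higher to 61.1% higher (3619 higher, 2302 lower).

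The genes that stood highest in cerebellum over the non-neural tissues included genes of axons, of secretory vesicles and of glutamate clearance. Nmnat2, which makes NAD in axons and keeps them alive, had levels of 4.72 and 4.46 on the cerebellum arrays. On the non-neural arrays its lowest level was -3.95, the median -2.19 and the highest 0.23, in lung. The groups did not overlap, and the difference was 6.85 ± 0.21 (SE; adjusted p = 4.02e-15, limma), or 115-fold.

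Scg2, secretogranin II of dense core vesicles, read 7.94 and 7.91 in cerebellum and from -0.31 through a median of -0.04 to 6.42 elsewhere. It was well above background on 9 of the 24 non-neural arrays, and its highest values there came from large_intestine replicate 1 and from small_intestine (mean 6.02). The difference was 6.59 ± 0.40 (adjusted p = 8.27e-11).

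Sphkap encodes an anchoring protein for protein kinase A. It read 7.21 and 7.05 in cerebellum, against -0.03, 0.44 and 1.74 (lowest, median, highest) on the non-neural arrays, a wide gap between the groups, with 14 of those arrays well above background. Kif1a, the motor that hauls synaptic vesicle precursors along axons, read 5.27 and 5.45 against -2.48, -0.85 and 1.88, a difference of 5.82 ± 0.24 (adjusted p = 2.63e-13). Stomach was the highest non-neural tissue for both of these genes.

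The transcript 2810011L19Rik, now Tunar, a long noncoding RNA linked to neural differentiation, read 5.51 and 5.58 in cerebellum and -1.22, -0.91 and -0.17 elsewhere. It was well above background on 1 of the 24 non-neural arrays, so that the difference of 6.41 ± 0.18 rests there on dim signals. Probe 2900019G14Rik, a synonym of Slc1a2, the glial transporter that clears glutamate, read 6.99 and 7.0 against -0.20, 0.16 and 6.72. Its high non-neural values came from liver (mean 6.47), and both cerebellum arrays still lay above them.

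The other leading genes were AI427515 (Vat1l), Cdh20, St18, 6330439K17Rik (Dzank1) and the clone names 2810037O22Rik and BC042720, which match no current gene. Cdh20, a cell adhesion cadherin, read 6.25 and 6.14, with a non-neural range of -0.09 to 1.86 and 6 of those arrays well above background. In the ratio, the difference of 2810037O22Rik was the largest of any probe with a symbol that met the naming rule, 7.23 ± 0.22 (adjusted p = 3.78e-15, limma). On Cy3 alone Rgs8 (10.23) and Gpr37l1 (8.97) differed more. Over the 12 leading genes the differences of the ratio ran from 5.77 to 7.23, or 54.7-fold to 150-fold. These folds are measured against non-neural arrays of which between 1 and 24 were well above background, 11 of 24 for 2810037O22Rik, and are imprecise where most were dim. Against brain_cortex they ran from -0.28 to 2.68, and 2 of the 12 were called higher in cerebellum, namely St18 and Tunar. Against eyes 5 of the 12 passed the same call.

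**Figure D1:**
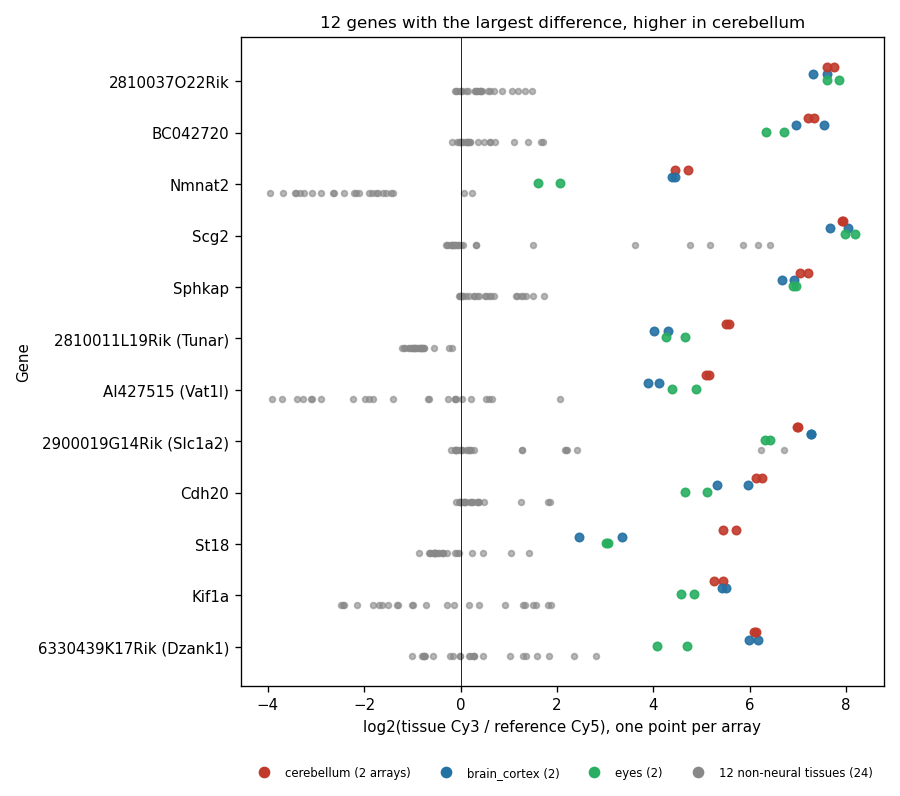
Levels, log2(Cy3/Cy5), of the 12 genes with the largest difference among those called without overlap with the non-neural arrays, 1 point per array, for cerebellum (red), brain_cortex (blue), eyes (green) and the 12 non-neural tissues (grey). Both cerebellum arrays lie to the right of all 24 non-neural arrays for every gene, while for most genes the brain_cortex points sit beside them.

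The counts of cell type genes that follow stand beside 15.1% of all probes and 12.4% of those with a symbol that were higher. Purkinje cell genes with a probe numbered 3 of the 27 in the list, and all 3 were higher. Dner, a Notch ligand of Purkinje cells, read 5.28 and 5.38 in cerebellum. Its non-neural arrays read -1.14, -0.27 and 3.64, with bladder at the top, and the difference was 5.30 ± 0.18 (adjusted p = 1.65e-14). Rgs8, which speeds the shut-off of G proteins, read 4.85 and 4.93 against -0.33, -0.10 and 0.77, a difference of 4.95 ± 0.11, with 3 of the non-neural arrays well above background. Neither Dner nor Rgs8 was called against brain_cortex, where the differences were 0.45 ± 0.24 and 0.38 ± 0.15.

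Homer3 behaved otherwise. It encodes a scaffold beneath the glutamate receptors of Purkinje cell spines, and it read 0.90 and 1.13 in cerebellum, -0.68 and -0.49 in brain_cortex, and -0.46 and -0.41 in eyes. The non-neural arrays read -0.48, -0.16 and 0.58, so that cerebellum lay above every other array of the series. Its difference was 1.16 ± 0.16 from the non-neural tissues, 1.6 ± 0.21 from brain_cortex and 1.45 ± 0.21 from eyes (adjusted p = 3.84e-06, 3.8e-05 and 2.8e-05).

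Granule cell genes with a probe numbered 3 of 24, all of them higher. Rims1, a scaffold of the presynaptic active zone, read 3.40 and 3.46, beside 3.75 and 3.14 in brain_cortex and 3.21 and 3.47 in bladder, the highest of the non-neural tissues. Cntn2, an axonal adhesion molecule of young granule cells, read 1.78 and 1.70, against -0.17, 0.09 and 0.26. Syt2, a calcium sensor of fast transmitter release that also stands in the list of interneurons and deep nuclei, read 1.77 and 1.71 in cerebellum. On none of the 24 non-neural arrays was Syt2 well above background, and in the Cy3 channel it was at least 4.36-fold higher in cerebellum (log2 Cy3 of 8.47 against a measured 6.24). The difference of Syt2 from brain_cortex was 1.09 ± 0.11 and from eyes 1.55 ± 0.11.

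Tcfap2b (Tfap2b), a transcription factor of the inhibitory lineage, was the other member of the list of interneurons and deep nuclei. It read 5.04 and 5.20 in cerebellum, but 5.54 and 5.55 in eyes and up to 5.85 in skin, so its difference of 4.05 ± 0.67 is a mean over tissues that overlapped with cerebellum. The brain_cortex arrays read 3.25 and 2.01, and that comparison missed the threshold (difference 2.49 ± 0.91, adjusted p = 0.11).

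Glial genes followed. Of 6 astrocyte and Bergmann glia genes with a probe 4 were higher, with a median difference of 1.78. They include Sept4, which is also counted in the oligodendrocyte list below. Gpr37l1, a receptor of Bergmann glia, read 5.65 and 5.51, against -0.38, 1.94 and 4.91, and Mt3, a zinc-binding metallothionein, read 2.00 and 2.21 against -0.39, 0.51 and 2.66. Glul, glutamine synthetase, read 1.28 and 1.38 beside a non-neural median of 1.27 (difference 0.19 ± 0.32, adjusted p = 0.643), and Msi1 differed by 0.05 ± 0.27 (adjusted p = 0.878). Liver led the non-neural tissues for Glul (mean 3.10) and large_intestine for Msi1 (mean 2.59).

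Of 7 oligodendrocyte and myelin genes 6 were higher (median 2.05). St18, a zinc finger factor, read 5.72 and 5.45, and its difference of 5.83 ± 0.19 was the largest of this list, with 4 of the non-neural arrays well above background. On Cy3 alone St18 differed by 5.06, less than Aatk (5.18). Aatk, a kinase of neurons and myelinating cells, read 6.44 and 6.47 against 1.0, 3.23 and 5.0. Neu4, a sialidase, read 2.08 and 1.89 and stayed at or below 0.11 on every non-neural array, of which 2 were well above background. Septin4, measured as Sept4, differed by 2.17 ± 0.18, and by 1.24 within the scan day of the cerebellum arrays. Lung reached 4.34 for it, beside 4.18 and 4.33 in cerebellum. Abca2 differed by 1.77 ± 0.23 and Tnr by 1.41 ± 0.13, while Nfasc differed by -0.02 ± 0.11 (adjusted p = 0.881, limma).

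The reference channel moved with some of these genes. The same reference RNA was in Cy5 on every array, yet the scanner's Cy5 mean signal of Rgs8 was 8258 and 8323 on the cerebellum arrays and 70.3 to 93.8 on the 24 non-neural arrays. The Cy3 signal of that probe was 74420 and 81780 in cerebellum, with a non-neural median of 63.2. On Cy3 alone the difference of Rgs8 was 10.23, that of Gpr37l1 8.97 in place of 3.73 and that of Dner 7.38 in place of 5.30. That of Sept4 was 4.45 and that of Aatk 5.18. For each of these genes the difference of the ratio was the smaller one. For St18 it was the larger one, 5.83 against 5.06 on Cy3 alone.

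Over all probes, Cy5 was at least 1 (log2) higher on the cerebellum arrays for 378 of the 3179 higher probes (11.9%) and for 5 of the 14316 probes not called (0.0349%). For 141 of the 3524 lower probes (4%) it was at least 1 lower. On Cy3 alone, 12 of the 12 leading genes above still had both cerebellum arrays above all 24 non-neural arrays. So did 1867 of the 2024 probes that were called higher and did not overlap. The part of the channel in each difference was not tested.

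Lists of neuronal wiring held larger shares of higher calls than the 15.1% of all probes and the 12.4% of probes with a symbol. Of 26 axon guidance and neural adhesion genes 18 were higher and 1 lower, with a median difference of 1.70. Cdh20 and Dner led them, followed by Bai3 (Adgrb3), an adhesion receptor at synapses, at 5.23 ± 0.16, and by Adam23 at 4.75 ± 0.28. Of 25 genes of the neuronal cytoskeleton and axonal transport 13 were higher and none was called lower (median 1.33). In front were Nmnat2, Kif1a, Gdap1 (4.21 ± 0.27) and Kifap3 (3.18 ± 0.24). For Gdap1, muscle read 5.17 on both arrays, close to 5.29 and 5.35 in cerebellum.

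Of 17 genes of synaptic and dense core vesicles 8 were higher (median 0.82). Beside Scg2 these included Resp18, a protein of neuroendocrine granules, at 4.97 ± 0.16, and Ptprn, a granule membrane protein, at 3.47 ± 0.28. Of 8 subunits of the vacuolar ATPase, the pump that acidifies vesicles and so powers the uptake of transmitter, 4 were higher. Atp6v1a led them at 2.42 ± 0.30, while the median of the list was 1.17 and Atp6v0e was the 1 member called lower. Kidney was the non-neural tissue with the highest level of Atp6v1a, Atp6v1h and Atp6v0c, and for Atp6v1a its highest array (2.12) lay above cerebellum (1.99 and 1.90).

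Of 33 genes of G protein, cyclic nucleotide and calcium signalling 16 were higher and 4 lower (median 0.93). Adcy8, a calcium-stimulated adenylyl cyclase, read 4.76 and 4.75, overlapping with lung (mean 4.52) and with fat replicate 1 (5.41), and Adrbk2 (Grk3), a receptor kinase, differed by 2.75 ± 0.30. Of 28 ion channel and transmitter receptor genes 8 were higher, 2 lower and 18 neither, with a median of 0.07. The acid-sensing channels Accn2 (Asic1) and Accn1 (Asic2) differed most, by 4.21 ± 0.30 and 3.44 ± 0.33. Of 6 genes of transmitter metabolism 3 were higher, namely Slc1a2, Abat (3.40 ± 0.18), which breaks down GABA, and Ache (2.21 ± 0.40), acetylcholinesterase. Abat read 6.71 and 6.67 in cerebellum, within the range of liver and kidney (6.66 to 6.95), and bone replicate 1 reached 3.0 for Ache, between its cerebellum values of 2.86 and 3.02.

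Of 56 respiratory chain and ATP synthase subunits, which make ATP in every tissue, none was higher and 1, Ndufab1, was lower, at levels of -1.94 and -1.98 against a non-neural median of 0.42. Among all probes with a symbol 12.4% were higher and 12.1% lower. The median difference of the list was -0.18, beside -0.11 over all probes.

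**Figure D2:**
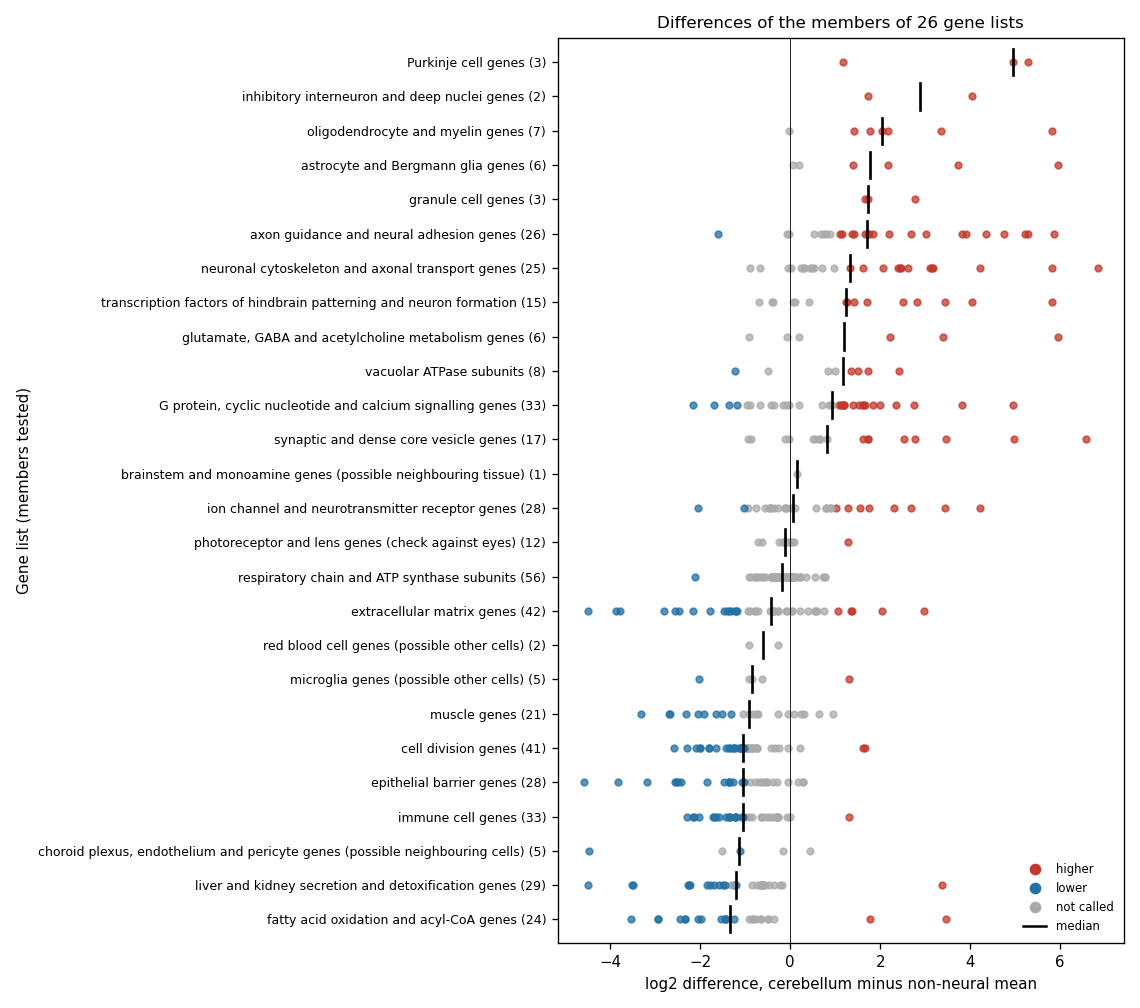
Log2 difference of every tested member of 26 gene lists, cerebellum minus the mean of the 12 non-neural tissues, with higher calls in red, lower calls in blue, others in grey and the median as a black bar. The medians of the Purkinje, granule, astrocyte, oligodendrocyte, adhesion and axon lists lie between 1.33 and 4.95, and those of the fatty acid, liver and kidney, immune and epithelial lists between -1.34 and -1.05, while single members of many lists lie on the other side of 0.

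Next, probes were counted that were higher in cerebellum than in the non-neural tissues, in brain_cortex and in eyes. No other neural tissue was in the series. The 3 comparisons share the cerebellum arrays. There were 200 such probes (0.952% of those tested), 28 of them with a symbol (0.555%). In all, 477 probes (2.27%) were higher and 672 (3.20%) lower in cerebellum than in brain_cortex, and 1817 (8.64%) were higher and 2622 (12.5%) lower than in eyes. For 18 of the 28 genes both cerebellum arrays also lay above all 24 non-neural arrays, as they did for 384 of all 624 higher probes with a symbol.

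Among the 28 genes with a symbol, the clone 4831410D14, which matches no current gene, had the largest differences from brain_cortex and from eyes. It read 3.98 and 3.95 in cerebellum, -0.22 and -0.32 in brain_cortex, -0.06 and 0.07 in eyes, and -0.26 to 0.20 on the non-neural arrays. It was well above background on none of those 24 arrays, and in Cy3 it was at least 10.5-fold higher in cerebellum than in the non-neural tissues (log2 Cy3 of 9.76 against a measured 6.20). A probe without a symbol, Z00023139-1, chosen here after its values were seen, went further. It read 8.70 and 8.80 in cerebellum, -0.01 and 0.09 in brain_cortex, -0.05 and 0.04 in eyes, and -0.19 to 0.15 on the non-neural arrays, of which 1 was well above background.

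En1, the homeobox gene that sets up the midbrain and hindbrain border from which the cerebellum grows, read 0.55 and 0.80 in cerebellum. It read -3.25 and -3.11 in brain_cortex and -3.04 and -3.19 in eyes. The non-neural arrays read -3.61, -2.55 and 0.98, and 16 of the 24 were well above background. Cerebellum was therefore separate from both neural tissues (3.86 ± 0.54 and 3.79 ± 0.54) but lay below muscle replicate 1, at 0.98, while muscle replicate 2 read -1.53 and every other non-neural array was below cerebellum.

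St18 read 3.35 and 2.45 in brain_cortex and 3.02 and 3.07 in eyes, below cerebellum by 2.68 ± 0.26 and 2.54 ± 0.26. The noncoding transcripts 5830416P10Rik (Mirt1) and 2810434M15Rik (Airn) exceeded brain_cortex by 2.96 ± 0.41 and 2.90 ± 0.26. Bone had a higher array than cerebellum for Mirt1 (2.61). For Airn both kidney arrays (2.28 and 2.58) and both muscle arrays (2.41 and 2.32) lay above cerebellum (1.80 and 1.41).

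Among 15 transcription factors of hindbrain patterning and neuron formation 9 were higher than in the non-neural tissues and none was called lower (median 1.25). Of these, 4 were higher in all 3 comparisons: St18, En1, Lhx9 and Pax3. The shares over all probes with a symbol were 12.4% higher, 12.1% lower and 0.555% higher in all 3 comparisons. Lhx9, a LIM homeobox factor, read 2.00 and 2.18 in cerebellum, 0.58 and -0.61 in brain_cortex and 0.41 and 0.92 in eyes, with a non-neural maximum of -0.06 and 2 of those arrays well above background. Fam107b, measured as 3110001A13Rik, read 1.49 and 1.80 in cerebellum and 1.62 and 1.6 in eyes, but -2.27 and -2.31 in brain_cortex. Its difference from the non-neural tissues was 1.34 ± 0.30, and 0.78 within the scan day of the cerebellum arrays.

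**Figure D3:**
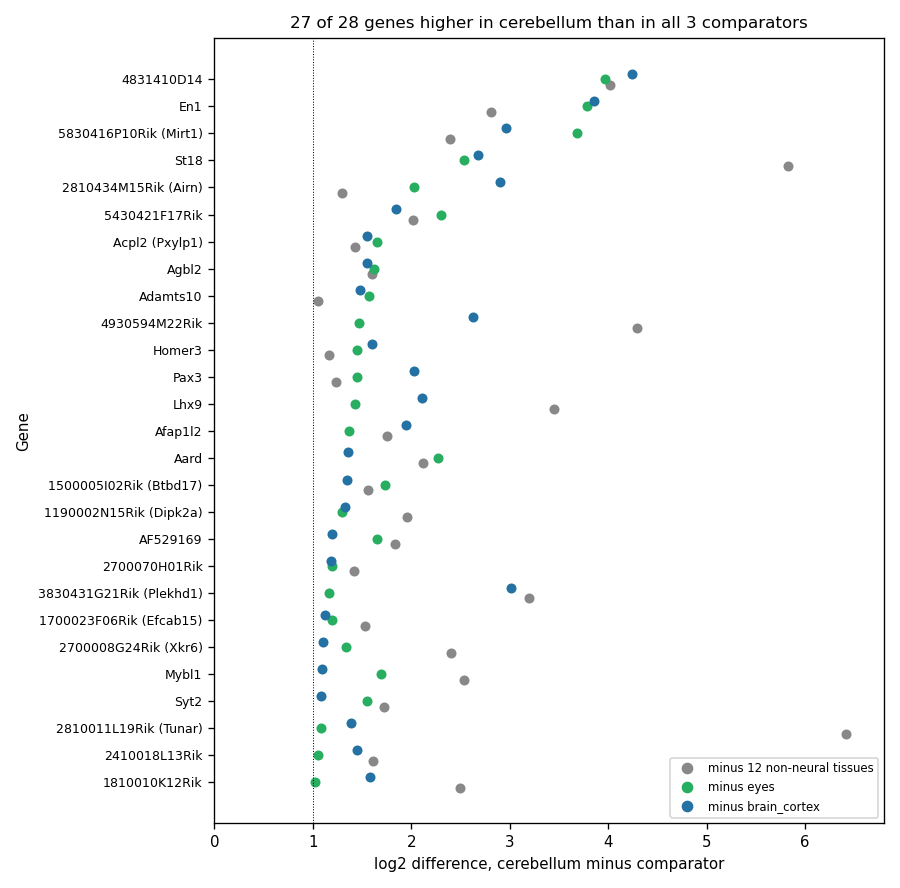
Log2 differences of 27 of the 28 genes higher in cerebellum than in all 3 comparators, from brain_cortex (blue), eyes (green) and the mean of the 12 non-neural tissues (grey), with the threshold of 1 as a dotted line. 4831410D14 and En1 lie furthest to the right for the blue and green points, near 4, and Tunar for the grey points, at 6.41.

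Promoter sequences are shown for 4 higher genes with roles above and 2 lower genes, from 250 bases before to 50 after the start site in RefSeq, build GRCm38.p6, with each CG in capitals because CG density varies between promoters of broadly and narrowly used genes.
En1, chr1:120602237-120602536, strand +: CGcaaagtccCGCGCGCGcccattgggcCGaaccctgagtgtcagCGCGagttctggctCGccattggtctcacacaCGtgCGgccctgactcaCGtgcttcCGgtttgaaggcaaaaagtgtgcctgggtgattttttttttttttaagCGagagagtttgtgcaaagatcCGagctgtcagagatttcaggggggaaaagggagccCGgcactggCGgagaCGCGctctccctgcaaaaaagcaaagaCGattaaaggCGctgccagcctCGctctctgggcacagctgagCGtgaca
Dner, chr1:84696172-84696471, strand -: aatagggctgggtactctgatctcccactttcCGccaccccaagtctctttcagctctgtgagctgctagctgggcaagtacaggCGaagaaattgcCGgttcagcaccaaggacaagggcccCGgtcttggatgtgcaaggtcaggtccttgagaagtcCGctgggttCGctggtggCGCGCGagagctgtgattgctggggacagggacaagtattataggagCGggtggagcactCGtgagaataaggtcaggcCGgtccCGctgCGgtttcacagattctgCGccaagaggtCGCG
Homer3, chr8:70282749-70283048, strand +: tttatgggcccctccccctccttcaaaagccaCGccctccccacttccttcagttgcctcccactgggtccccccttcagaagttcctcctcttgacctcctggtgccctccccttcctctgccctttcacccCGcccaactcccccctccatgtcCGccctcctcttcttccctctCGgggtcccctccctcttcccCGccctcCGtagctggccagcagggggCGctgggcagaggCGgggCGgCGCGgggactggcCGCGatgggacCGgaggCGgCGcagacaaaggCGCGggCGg
Nmnat2, chr1:152954851-152955150, strand +: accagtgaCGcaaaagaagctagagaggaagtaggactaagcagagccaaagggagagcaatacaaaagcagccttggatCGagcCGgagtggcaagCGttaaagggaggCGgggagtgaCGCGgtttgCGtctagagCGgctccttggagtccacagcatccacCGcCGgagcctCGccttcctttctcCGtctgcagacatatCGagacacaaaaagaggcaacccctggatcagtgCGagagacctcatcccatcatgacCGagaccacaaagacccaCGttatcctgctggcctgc
Plbd1, chr6:136661844-136662143, strand -: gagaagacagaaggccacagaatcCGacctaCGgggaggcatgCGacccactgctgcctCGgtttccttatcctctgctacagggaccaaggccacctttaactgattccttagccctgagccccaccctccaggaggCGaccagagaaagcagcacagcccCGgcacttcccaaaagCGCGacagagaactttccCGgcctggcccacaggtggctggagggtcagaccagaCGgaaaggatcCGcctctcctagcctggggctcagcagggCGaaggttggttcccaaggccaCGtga
Col3a1, chr1:45311288-45311587, strand +: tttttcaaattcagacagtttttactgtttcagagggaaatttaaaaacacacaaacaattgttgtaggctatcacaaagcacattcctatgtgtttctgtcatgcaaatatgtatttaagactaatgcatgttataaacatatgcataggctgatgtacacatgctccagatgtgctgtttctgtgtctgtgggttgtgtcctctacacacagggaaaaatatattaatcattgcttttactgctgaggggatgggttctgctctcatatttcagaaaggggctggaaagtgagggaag

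The windows of En1, Dner, Homer3 and Nmnat2 held 23, 17, 19 and 17 CGs, that of Plbd1 13, and that of Col3a1 none. Over 457 higher genes with a promoter in the table the median was 20.0 CGs (quartiles 11 and 29), over 471 lower genes 16.0 (7 and 24), and over all 3786 tested genes 19.0 (9 and 27). The 17 genes with a promoter in the table that were higher in all 3 comparisons had a median of 11.0 (6 and 23). The TATA box letters TATAAA, searched on both strands, stood in 4.60% of the higher, 11.3% of the lower and 7.84% of all tested promoters, and in 14.2% of all 27025 genes of the table. Among the 6 windows only Col3a1 held them. The letters TTCAGCACC, which overlap the binding motif of the neuronal silencer REST, stood in 4 higher promoters (0.875%), in none of the lower, in 0.343% of all tested and in 0.359% of all genes. The 4 genes were Dner, Scg2, Cntnap5b and Tmem114, the last 2 measured as C230078M14Rik and 4930511J11Rik. These shares describe letters in a window, and no test was made of them.

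Among probes with a symbol, those lowest in cerebellum against the non-neural tissues included Plbd1, Col3a1, Rab17, Aqp1 and Ahnak. Of probes without a symbol called without overlap, Z00036206-1 differed most, by -8.08. 1100001H23Rik, now Plbd1, a lysosomal phospholipase B-like protein, read -1.74 and -1.52, and the non-neural arrays read 2.38, 5.04 and 6.58. No non-neural tissue came near the cerebellum arrays, and the difference was -6.38 ± 0.20 (adjusted p = 7.32e-15), or 83.4-fold lower. Plbd1 read -1.79 and -1.23 in brain_cortex and 2.19 and 1.93 in eyes.

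Col3a1, a fibrillar collagen, read -5.44 and -5.46 against -3.63, -1.0 and 2.19, with skin highest (mean 1.91) and liver lowest. Rab17, a trafficking GTPase of epithelia, read -2.35 and -2.05 against -1.47, 2.63 and 5.67, led by small_intestine. Ahnak, a giant scaffold protein, read -3.14 and -2.88 against 0.30, 1.31 and 2.70, so that its groups lay far apart. For Aqp1, a water channel, the cerebellum arrays read -3.14 and -1.74, a wider spread than for the other genes, and still lay below the non-neural minimum of -0.70. Without cerebellum replicate 1 the difference of Aqp1 was -3.78 and without replicate 2 it was -5.18, beside -4.48 ± 0.24 with both.

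The other leading lower genes were 2200002D01Rik, AI661453, 1810011O10Rik (Tcim), 1810019D21Rik and 1600029D21Rik (Plet1). Over the 10 genes the differences ran from -6.38 to -4.37, or 20.7-fold to 83.4-fold lower. Against brain_cortex they ran from -0.42 to 0.08 and none was called, while against eyes 10 of 10 were called lower, from -8.15 to -2.15. Plet1 read -1.89 on both cerebellum arrays and -1.89 on the lowest muscle array, so its separation was within rounding. On Cy3 alone Plet1 overlapped, and the other 9 did not.

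**Figure D4:**
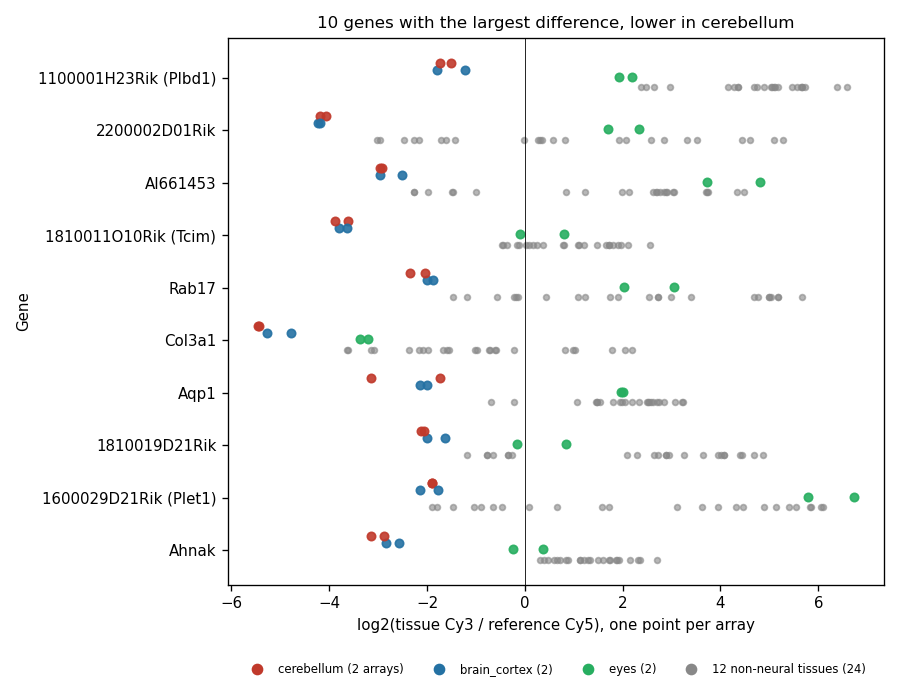
Levels, log2(Cy3/Cy5), of the 10 genes with the largest difference in the other direction among probes with a symbol called without overlap with the non-neural arrays. There is 1 point per array, with colours as in the plot of the higher genes. Both cerebellum arrays lie left of all 24 non-neural arrays, with brain_cortex beside them and eyes among or near the non-neural points.

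Of 24 genes of fatty acid oxidation and acyl-CoA metabolism 13 were lower, against 16.8% of all probes and 12.1% of those with a symbol, and 2 higher (median -1.34). Acaa2, the thiolase of mitochondrial beta-oxidation, read -1.04 and -0.83 against 1.79, 2.45 and 4.46, a difference of -3.55 ± 0.13 (adjusted p = 9.59e-14). Acads, a short-chain dehydrogenase of the same pathway, differed by -2.95 ± 0.24 and Acaa1b, the peroxisomal thiolase, by -2.95 ± 0.35. The 2 higher members were acyl-CoA ligases, Acsl6 at 3.46 ± 0.35 and Acsl3 at 1.77. For Acsl6, muscle read 4.44 and 4.53, close to 4.73 on both cerebellum arrays.

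Of 29 liver and kidney genes 14 were lower and 1 higher (median -1.21). Gsta3, a glutathione transferase, differed by -4.50 ± 0.40 and Ugt1a6a, a conjugating enzyme, by -3.52 ± 0.17. Acsm3, an acyl-CoA synthetase of liver and kidney, was not well above background on either cerebellum array and was at least 11.5-fold lower there (log2 Cy3 of a measured 6.34 against 9.86). The higher member was Apoa2, an apolipoprotein made by the liver, which read 4.37 and 4.19 in cerebellum and 3.71 to 3.85 in liver. In the Cy3 signal liver was far brighter, at 265800 to 290400 scanner units against 5928 to 7427 in cerebellum, and liver's Cy5 signal was 84090 to 96110 against 647 to 674. The order of cerebellum and liver for Apoa2 therefore turned with the use of the reference channel.

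Of 28 epithelial barrier genes 15 were lower and none higher (median -1.05), among them Lad1 (-3.82 ± 0.52) and Pkp1 (-3.18 ± 0.28), components of epithelial anchoring junctions. Pkp1 differed by -1.6 with the 5 non-neural tissues of the cerebellum scan day as comparator and scan day as a block. Of 42 matrix genes 15 were lower and 5 higher (median -0.43), the latter near the 12.4% of all probes with a symbol. Beside Col3a1 the lower ones included Col6a3 (-3.89 ± 0.41) and Dpt, dermatopontin, which was well above background on neither cerebellum array and at least 20.2-fold lower in Cy3 (a measured 6.14 against 10.54). The 5 higher ones were Adamts18, Col19a1, Acan, Sulf1 and Adamts10, and Adamts18 led with 2.99 ± 0.19.

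Of 41 cell division genes 21 were lower and 2 higher (median -1.04). Kif23 (-2.59 ± 0.36), Cks2 (-2.31 ± 0.24), Ncapg (-2.08 ± 0.29) and Kif14 (-2.01 ± 0.28) led, and bone was the highest non-neural tissue for each of them. Cks2 overlapped, as muscle read -6.71 and -6.84, below -5.77 on both cerebellum arrays. With the 5 non-neural tissues of the cerebellum scan day as comparator, which lack bone, Ncapg differed by -1.04 and Kif14 by -1.08. The mean level of the list was -3.61 and -3.62 on the cerebellum arrays and -3.49 to -0.49 on the non-neural arrays. The 2 higher members were Cdc7 (1.66) and Spag5 (1.63).

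Of 33 immune cell genes 17 were lower and 1 higher (median -1.06). Ptprc, the CD45 antigen of white blood cells, read -3.55 and -3.66 against -2.81, -1.94 and 1.24, and Fcgr2b differed by -2.30 ± 0.23. Trem2, a receptor of microglia, was the higher one, at -0.59 and -0.63 against -3.14, -2.18 and -0.47, with both bone arrays and fat replicate 1 above cerebellum. Of 21 muscle genes 9 were lower and none higher (median -0.92). Des, the muscle filament desmin, differed by -3.32 ± 0.20 and by -5.02 on Cy3 alone, and its highest non-neural tissue was bone (mean 3.16). Actn3, a fast muscle actinin, differed by -2.32 ± 0.46, but by -0.48 with the 5 non-neural tissues of the same scan day as comparator, a set without bone and muscle. Bone also had the highest level of Actn3 (mean 5.49).

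Markers of neighbouring tissue bear on the label. Rgs4, a regulator of G proteins abundant in cortex, read 3.88 on both cerebellum arrays and 5.81 and 5.62 in brain_cortex, a difference of -1.83 ± 0.35. Of 5 genes of choroid plexus, endothelium and pericytes 2 were lower and none higher (mean level 1.07 and 1.23, against 1.09 to 3.74). Of 5 microglia genes 1 was higher and 1 lower, and of 2 red blood cell genes none was called. The 1 brainstem gene with a probe, Fev, differed by 0.15 and was not called. Of 12 photoreceptor and lens genes 1, Cryba2, was higher than in the non-neural tissues, at 1.65 and 1.38 beside 5.24 and 5.25 in eyes. On Cy3 alone the difference of Cryba2 was 0.82, under the threshold of 1. The list's mean was -0.04 and -0.05 in cerebellum and 4.65 on both eyes arrays. These counts stand beside 12.4% higher and 12.1% lower among all probes with a symbol. The part of these markers in the results above was not tested.

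As a description of the whole profile, the cerebellum arrays correlated across the 21019 probes at r = 0.926 on average with brain_cortex (0.921 to 0.931 over 4 pairs) and at 0.705 with eyes (0.677 to 0.732). The 12 non-neural tissues followed from heart (0.468), bladder (0.459) and muscle (0.451) down to large_intestine (0.323), small_intestine (0.309) and liver (0.292). All points share the reference channel, and brain_cortex replicate 1 also shares the slide. Bladder took the place of heart as the nearest non-neural tissue on the Cy3 level alone (0.776) and in the authors' table (0.841, with eyes at 0.902). The order of replicate, brain_cortex and eyes was the same in the 6 processings tried. These count the main one and Aquantile between arrays, which leaves the ratios as they are.

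**Figure D5:**
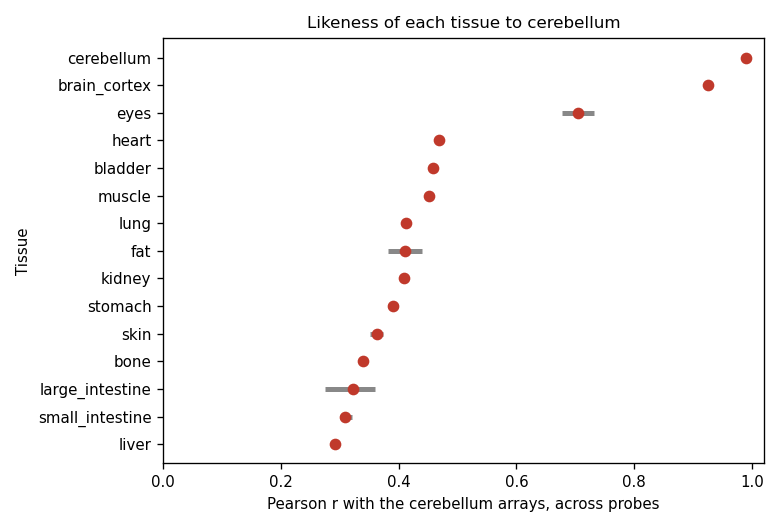
Pearson r across probes between the cerebellum arrays and the arrays of each tissue, with the mean as a point and the range over 4 pairs as a bar (1 pair for cerebellum itself). Brain_cortex at 0.926 and eyes at 0.705 stand above the 12 non-neural tissues, which lie between 0.292 and 0.468.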

How the data were processed

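Total RNA of 15 tissues was labelled with Cy3 and hybridised against a common Cy5 reference, without dye exchange. The authors extracted spots with Agilent Feature Extraction 9.5.1.1, and the deposited files give each channel's mean signal and background as an intensity in scanner units. The authors' value table is on a log10 scale. Regressed over 8987 bright probes, it had slopes of 0.999 on processed Cy3 and -0.998 on how far processed Cy5 departed from the probe's average, so it holds tissue levels adjusted for the reference. Its 25030 probes defined the set tested, and its values served as an alternative, as did the processed signals. The deposited flags for outliers and for signal well above background, which are of another kind, were used as filters.

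Background was corrected by normexp (offset 50), outlier spots (475) were removed, and arrays were normalised by loess. The filter asked that some tissue have Cy3 flagged well above background on each of its 2 arrays, which 21019 probes (84%) met. limma 3.58.1 in R 4.3.3 was fitted to all 30 arrays with 1 coefficient per tissue (15 residual degrees of freedom), and p-values were two-sided and adjusted by Benjamini and Hochberg over all probes. Where a probe was dim throughout a group, the fold is a lower bound in Cy3 after loess and Aquantile, each dim array being set at the higher of its own value and the lowest signal well above background on that array. The number of arrays limits the precision. The fit was tested on simulated data.

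Symbols came from the study's probe lists, used for names only. They cover a partial set of genes, and of the 5047 symbols past the filter 3166 were current in RefSeq (GRCm38.p6), 1534 were synonyms and 347 neither. Antisense genes were not counted in lists under the gene whose name they carry. Named genes were the 12 highest and 10 lowest called without overlap with the 24 non-neural arrays, the 6 furthest above brain_cortex and eyes, all cell type markers with a probe, up to 4 called members of every other list, and En1, Fam107b, Nmnat2 and Tunar; a few genes that the rule names are not reported here. Members, lists and tests were chosen with earlier results of these data known. Alternatives were other signals, normalisations, filters, blocks, comparators and arrays left out in turn.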

Additional observations from a re-analysis of the deposited data

Results flagged for a closer look

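Beyond the authors' table the array held 16976 further probes, of which 13618 passed the same filter. Of these, 1634 (12%) were higher and 1557 lower in cerebellum than in the 12 non-neural tissues, a signal in probes outside the reported comparisons.

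The Cy5 channel was used only as the denominator, and the same reference RNA was in it on every array. Among the 3179 higher probes 378 (11.9%) had a Cy5 signal at least 1 (log2) above that of the non-neural arrays, against 5 of the 14316 probes not called. The cause was not tested.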

How the results depend on the processing

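The counts of higher and lower probes stayed within 1.5 times of the reported 3179 and 3524, and the count of 200 above brain_cortex and eyes did too (not defined for 26 arrays only, which leave those tissues out), under the processed signals, Aquantile (which leaves the ratios as they are), Cy3 alone, the authors' table, both other filters, 26 arrays only, the random slide block (correlation 0.693), the comparator without fat, bone and large_intestine, and every array left out. Leaving out arrays gave 3094 to 3244 higher, 3279 to 3565 lower and 144 to 215 above both neural tissues, the lowest of these without brain_cortex replicate 2. Median centring gave 2302 lower probes. All probes of the array gave 4812 higher and 310 above both neural tissues, with more probes tested. A threshold of 2 gave 1480 higher, 1128 lower and 49. The r of the 2 cerebellum arrays was 0.976 with the processed signals and 0.995 on Cy3 alone, beside 0.989.

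Replicate numbers were not taken as pairs in the main fit. Deviations correlated with those of cerebellum at -0.0353 to 0.300 over 12 tissues (median 0.0823), and over 0.1 in 5 of them. Whether the numbers mark a shared animal was not tested. The replicate block gave 3184 higher and 3527 lower probes. Slide as a fixed block could not be fitted for this contrast, because cerebellum is linked through slides only to brain_cortex, eyes and lung. Within these 4 tissues, cerebellum against lung gave 3020 higher and 3727 lower with the block, beside 3300 and 3896 without it. Against eyes the block gave 1446 higher and 2129 lower, beside 1946 and 2764 without it. Against brain_cortex it gave 509 higher and 889 lower, beside 575 and 841. Within the scan day of the cerebellum arrays, chosen after seeing the data, 3145 were higher and 3545 lower.

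Of the 100 named genes over 45 alternatives, 0 called differences changed sign, and 4488 of 4498 values kept their side of an adjusted p of 0.05. Without heart replicate 1, Ncapg gave no value. Actn3 missed it under the random slide block (-2.19) and in the 3 settings with the 5 tissues of the scan day (-0.48 to -0.51). The comparator there lacks bone and muscle. Nfasc (-0.47 to -0.45) and Msi1 (0.52) gained an adjusted p under 0.05 in settings with the 5 tissues of the scan day, and Glul (0.29, adjusted p = 0.0421, limma) without large_intestine replicate 2, none with a difference of 1. The processed signals raised Lhx9 to 6.9, En1 to 4.33, Neu4 to 4.77, Ptprn to 5.73 and Cryba2 to 2.66. They also moved 4831410D14 to 7.24, Syt2 to 2.73 and Dpt to -7.54, but for these one side was not well above background on any array, so the values are no measured folds. Cy3 alone gave 1.32 for Neu4, 1.1 for Cntn2, 0.82 for Cryba2, 2.37 for Mt3 and -1.31 for Ptprc. The authors' table gave 2.05 for Accn1, 2.16 for Tnr, 2.97 for Cntn2 and -4.09 for Kif23. The 5 tissues of the scan day gave -1.04 for Ncapg and 1.24 for Sept4 (within that day).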
